A study of Mus musculus with 4 samples.

Results

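The E2F transcription factors, Foxm1 and Mybl2 were examined in ECs isolated from mouse lungs after unilateral pneumonectomy (PNX). The set was chosen by name and held 10 genes, E2f1 to E2f8, Foxm1 and Mybl2, of the 24063 gene symbols in the tables, and all 10 had enough counts to be tested. The mice were C57BL6J, aged 8 weeks, and their lung ECs were captured on beads against CD31 either 7 days after removal of the left lung or after a sham operation, which opened the chest and left the lung in place. Each group had 2 libraries, and the cells of 2 mice were pooled in each library. No transgene is described, and the only drugs described are anaesthetics and an analgesic.

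E2F proteins are the transcription factors that switch on the genes of DNA replication when a cell leaves rest. Most of them bind DNA as dimers with a DP protein, and the retinoblastoma family of pocket proteins holds them in check until cyclin-dependent kinases release them. Later in the cycle B-MYB, the product of Mybl2, joins the MuvB complex, and FOXM1 is then brought to the same complex to activate the genes of mitosis. Endothelium of the adult lung is for the most part at rest.

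Post-PNX ECs were compared with sham ECs, the comparison for which the RNA was sequenced. Foxm1, E2f8, E2f7, Mybl2 and E2f1 rose after PNX, by between 2.64-fold and 6.50-fold. E2f2 and E2f3 were higher by 1.66-fold and 1.68-fold, short of the fold threshold. The abundant repressors E2f4, E2f5 and E2f6 had 0.98, 0.85 and 1.08 times their sham levels.

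Reads had been counted on RefSeq transcripts of mm10, and for each gene the transcript with the highest summed count was used. On that basis the libraries held between 41367438 and 50952879 counts. The labels state male mice, but all 44 chromosome Y genes in the tables were at 0 in the 4 libraries and Xist had between 29890 and 36875 counts, and this held for both groups alike. The endothelial markers were abundant, with 12 of 12 detected and a sum of 12866 and 13017 CPM (counts in 1000000 counts of the library) in sham and of 10977 and 11001 CPM in post-PNX libraries. At an adjusted p under 0.01 from edgeR's quasi-likelihood test, 10 of the 12 were lower after PNX and 1, Emcn, was higher. Of all genes tested 27.8% were lower and 29.3% higher at that threshold. Markers of other cells were present and shifted with the operation. Calls in this paragraph follow the thresholds given below, under which 5.90% of all genes tested were called higher. The sum of 7 macrophage markers was 477 to 484 CPM in sham and 1125 to 1126 CPM after PNX, and 4 of 7 were called higher. The sum of 6 fibroblast markers was 1267 to 1277 CPM in sham and 4794 to 4812 CPM after PNX, and 5 of 6 were called higher. The other, Pdgfra, was lower, with a log2 fold change of -0.23. The sum of 6 mesothelial markers was 249.8 to 253 CPM in sham and 521 to 528 CPM after PNX, and 4 of 6 were called higher. T cell, B cell and epithelial markers had lower sums after PNX, from 61.3 and 63.5 to 45.6 and 45.3 CPM, from 134.3 and 133.5 to 77.7 and 74.2 CPM, and from 8227 and 8261 to 4903 and 4808 CPM. The pan-leukocyte sum was 816 CPM in both sham libraries and 864 and 873 CPM after PNX, smooth muscle and pericyte markers had 397 and 402 against 532 and 528 CPM, and erythroid markers had 49.9 and 50.8 against 59.6 and 56.0 CPM. No marker of these lists was at 0 in all 4 libraries, although the study describes the isolated cells as lacking the leukocyte antigen CD45. In such bulk samples more cells of a type and more RNA per cell cannot be told apart, and the part of these cell types in the results on E2F genes was not tested.

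Sequences at the start sites of 4 members are shown because factors of this set are known to bind one another's promoters, and members that changed can be set beside members that changed less. Of the 10 genes, 7 had a window among the promoter windows that RefSeq gives for GRCm38.p6, the assembly of mm10, with 250 bases before and 50 after a start site. E2f4, E2f5 and Foxm1 had none. Both strands were searched for the E2F letters TTTGGCGC, TTTCCCGC, TTTCGCGC and TTTGCCGC, for the letters TTTGAA and TTCGAA of the CHR element through which MuvB binds, and for CCAAT, the NF-Y box. Capitals mark these matches, and a match on the other strand appears as its reverse complement (GCGGGAAA, TTCAAA and ATTGG). Bases are counted with the start site as 0.
E2f7, chr10:110745229-110745438, plus strand, bases -210 to -1: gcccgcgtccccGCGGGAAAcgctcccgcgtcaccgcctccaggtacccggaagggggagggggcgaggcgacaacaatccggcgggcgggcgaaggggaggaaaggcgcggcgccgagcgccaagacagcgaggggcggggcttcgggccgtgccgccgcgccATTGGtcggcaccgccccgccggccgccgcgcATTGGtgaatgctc
E2f8, chr7:48881597-48881716, minus strand, bases -120 to -1: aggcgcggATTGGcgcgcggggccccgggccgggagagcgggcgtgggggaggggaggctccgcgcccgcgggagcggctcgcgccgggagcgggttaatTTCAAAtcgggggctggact
E2f3, chr13:29986064-29986213, minus strand, bases -150 to -1: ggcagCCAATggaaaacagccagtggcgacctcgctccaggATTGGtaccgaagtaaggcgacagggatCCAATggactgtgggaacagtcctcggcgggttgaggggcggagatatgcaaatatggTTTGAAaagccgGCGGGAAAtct
E2f2, chr4:136172294-136172323, plus strand, bases 20 to 49: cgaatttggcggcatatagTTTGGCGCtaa

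E2F letters were found in the windows of E2f2, E2f3 and E2f7, in 1 place each, at base 39, -11 and -198. Of all 32851 windows 2.26% held such letters. CHR letters were found in E2f8, E2f3 and a second window of E2f2, at bases -20, -23 and -31, against 19.2% of all windows. CCAAT was found in windows of E2f2, E2f3, E2f7 and E2f8, against 37.4% of all windows. The windows of E2f1, E2f6 and Mybl2 held none of these exact letters. Only exact matches were searched, so sites spelled otherwise were not counted, and these windows cannot be said to lack E2F sites. The start sites used for E2f1, E2f8 and Mybl2 lay 466, 477 and 308 bases inside the gene as RefSeq gives it, so these windows do not cover the outermost start. That of the second E2f2 window lay 8508 bases inside the gene. Its CHR letters and 3 CCAAT matches are therefore not at the outermost start of E2f2. A second window of E2f3, 1673 bases inside, held no match. E2F letters were found in 1 member called (E2f7) and in members short of the fold threshold (E2f2 and E2f3). Foxm1 had no window, and the windows of E2f1, E2f8 and Mybl2 missed the outermost start. Whether such letters go with the change was therefore not tested.

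Counts were compared with edgeR's quasi-likelihood test after TMM scaling, and normalised counts are given at the mean library size. A gene was called with an adjusted p under 0.01 (Benjamini-Hochberg over the 16208 genes tested) and a log2 fold change beyond 1. Of all genes tested, 957 (5.90%) were called higher and 269 (1.66%) lower, 7.56% in all, and 5 of the 10 members were called higher and 0 lower. DESeq2's Wald test also called 5 higher and 0 lower. At an unadjusted p under 0.05, 8 members were higher and 1, E2f5, was lower, against 34.6% and 33.6% of all genes tested (68.2% in all). When counts were scaled to 12 endothelial markers in place of TMM, the median of all genes moved to 0.24 on the log2 scale and 93.3% in place of 78.1% of the called genes were higher, but the number of members called higher was again 5. The median log2 fold change over the 10 members was 1.08, against 0.00 over all genes tested. Sham and post-PNX libraries did not overlap in 9 of the 10 members, with E2f4 as the exception, but this was also so in 81.2% of all genes, with a median SD between libraries of a group of 0.036 on the log2 scale. The study describes the libraries as separate pools of mice. Whether so small a spread includes that between pools was not tested. The spread used for edgeR's p-values was estimated largely from all genes together, with 58.4 degrees of freedom for each member. These p-values therefore do not measure the spread of a single gene between the pools.

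**Figure D1:**
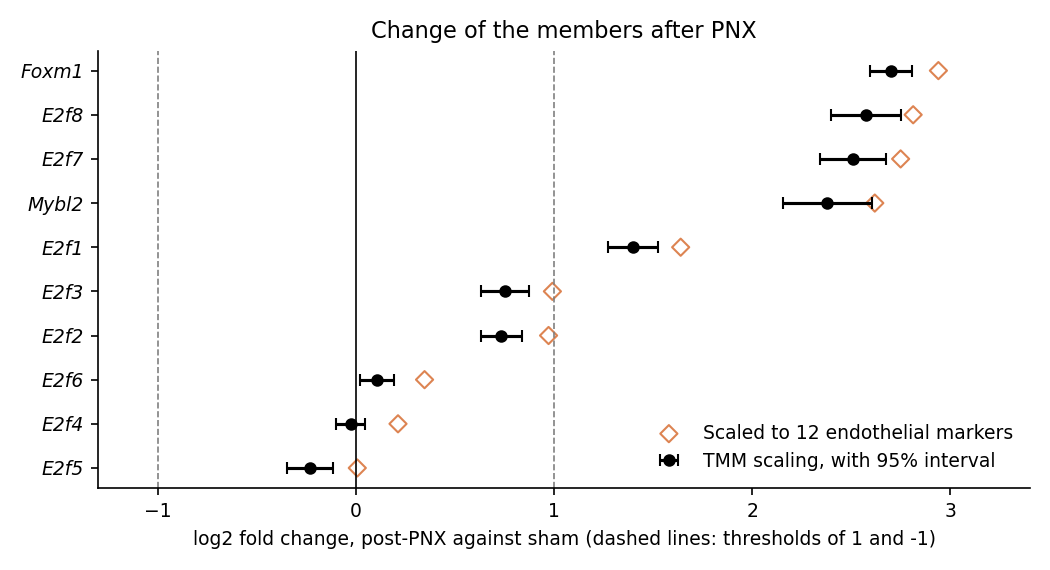
log2 fold change of the 10 members in post-PNX against sham ECs, with points and 95% intervals from edgeR's quasi-likelihood fit and diamonds for scaling to 12 endothelial markers; dashed lines mark the fold threshold. Foxm1, E2f8, E2f7, Mybl2 and E2f1 lie beyond 1 under both scalings, while E2f4 and E2f5 lie under 0 with TMM and above 0 with the other scaling.

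Foxm1 encodes a forkhead factor that drives the genes of G2 and mitosis and lies on chromosome 6 from 128362994 to 128375886. Its normalised counts were 378 and 343 in sham and 2381 and 2310 after PNX. The groups were far apart, and the fold between a post-PNX and a sham library ranged from 6.11 to 6.95. This was 2.70 on the log2 scale (SE 0.053) with an edgeR adjusted p of 8.1e-48, and Foxm1 ranked 202 of 16208 genes by fold. Tex52 overlaps Foxm1 on the same strand and had 22 and 21 counts in sham and 142 and 125 after PNX beside Foxm1 counts of 417 and 336 in sham and 2423 and 2073 after PNX.

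Mybl2 encodes B-MYB, the MYB protein that works with MuvB in dividing cells, and lies on chromosome 2 from 163054327 to 163084688. It was the scarcest member in counts, with 81.5 and 82.6 normalised counts in sham and 425 and 430 after PNX. Both post-PNX libraries were over 5 times the sham level, with folds between libraries from 5.14 to 5.28. This was 2.38 on the log2 scale (SE 0.11) with an edgeR adjusted p of 6.1e-28. Foxm1 and Mybl2 act in the same complex, and the ratio of their FPKM (fragments scaled by transcript length and library size) was 3.93 and 3.52 in sham and 4.76 and 4.55 after PNX, without overlap between the groups.

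E2f7 and E2f8 encode the atypical E2Fs, which bind DNA without a DP partner and repress E2F target genes late in S phase. E2f7, on chromosome 10 from 110745439 to 110787384, had 151 and 138 normalised counts in sham and 818 and 833 after PNX, or 2.51 on the log2 scale (SE 0.083) with an edgeR adjusted p of 1.2e-35. E2f8, on chromosome 7 from 48866429 to 48882073, had 122 and 128 in sham and 764 and 725 after PNX, or 2.57 on the log2 scale (SE 0.088) with an edgeR adjusted p of 8.4e-35. The ratio of E2f8 to E2f7 in FPKM was 1.20 and 1.38 in sham and 1.39 and 1.29 after PNX, so the groups overlapped in this ratio.

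E2f1, E2f2 and E2f3 encode the activating E2Fs, which bind RB1 and are freed from it at the entry into S phase. E2f1, on chromosome 2 from 154559400 to 154569892, had 399 and 368 normalised counts in sham and 1029 and 996 after PNX, or 1.40 on the log2 scale (SE 0.063) with an edgeR adjusted p of 1.2e-28. E2f2, on chromosome 4 from 136172274 to 136196057, had 736 and 721 in sham and 1205 and 1217 after PNX, or 0.73 on the log2 scale (SE 0.052) with an edgeR adjusted p of 1.8e-19. E2f3, on chromosome 13 from 29906575 to 29986064, had 532 and 531 in sham and 927 and 860 after PNX, or 0.75 on the log2 scale (SE 0.061) with an edgeR adjusted p of 4.8e-17. Both E2f2 and E2f3 passed the threshold on adjusted p but not that on fold, and scaling to the endothelial markers left them just under it at 0.97 and 0.99.

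The balance among the activators moved toward E2f1. The FPKM ratio of E2f1 to E2f2 was 0.95 and 0.90 in sham and 1.50 and 1.44 after PNX, and that of E2f1 to E2f3 was 1.42 and 1.31 in sham and 2.10 and 2.19 after PNX. Neither ratio overlapped between the groups. The ratio of E2f2 to E2f3 did overlap, with 1.49 and 1.46 in sham and 1.40 and 1.52 after PNX. Necab3 overlaps E2f1 on the same strand and had 24 and 17 counts in sham and 52 and 45 after PNX, beside 440 and 361 and then 1047 and 894 counts of E2f1.

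E2f4 and E2f5 encode the E2Fs that sit with the pocket proteins RBL1 and RBL2 on cell cycle promoters in resting cells. E2f4, on chromosome 8 from 105297663 to 105305370, had 2316 and 2287 normalised counts in sham and 2218 and 2303 after PNX. It was the only member whose groups overlapped, with a log2 fold change of -0.03 (95% interval -0.10 to 0.04, edgeR adjusted p 0.508). E2f5, on chromosome 3 from 14578602 to 14606309, had 795 and 803 in sham and 697 and 661 after PNX, or -0.23 on the log2 scale (SE 0.059) with an edgeR adjusted p of 4.2e-04. DESeq2's Wald test gave E2f5 an adjusted p of 0.0239, and without the second post-PNX library edgeR gave 0.0122, neither of which passes. Scaling to the endothelial markers gave 0.21 for E2f4 (adjusted p = 4.4e-06) and 0.0065 for E2f5 (adjusted p = 0.924), so the direction of both depended on the scaling. Rbis overlaps E2f5 and had 671 and 617 counts in sham and 689 and 657 after PNX, and reads shared by both genes cannot be told apart if strand was not used in counting.

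E2f6 encodes a repressor that lacks the pocket protein binding part and works with a Polycomb complex. It lies on chromosome 12 from 16810909 to 16826752 and had 1401 and 1380 normalised counts in sham and 1529 and 1463 after PNX. The post-PNX libraries were both higher, but the log2 fold change of 0.11 (SE 0.043) did not pass, with an adjusted p of 0.0269 from edgeR's quasi-likelihood test. With scaling to the endothelial markers it was 0.35 (adjusted p = 2.0e-08).

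Taking adjusted p alone, 7 members were higher and 1, E2f5, was lower, against 29.3% and 27.8% of all genes tested (57.1% in all). E2f1, E2f3 and E2f6 had 2 transcripts each. E2f1 had 440, 361, 1047 and 894 counts on the transcript used (sham libraries first) and 430, 354, 1044 and 898 on the other. E2f3 had 587, 521, 943 and 772 counts on the transcript used and 580, 519, 912 and 754 on the other. For E2f6 the transcript used was annotated as non-coding and had 1546, 1354, 1556 and 1313 counts, beside 1543, 1351, 1552 and 1312 on the coding transcript. The other 7 members had 1 transcript each.

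Levels of different genes were compared per length, in the FPKM that the authors deposited. In sham ECs the order was E2f4 (15.7 ± 0.14, SD, n = 2), E2f6 (7.57 ± 0.075), E2f5 (6.20 ± 0.050), E2f2 (2.09 ± 0.029), E2f1 (1.93 ± 0.11), E2f3 (1.42 ± 0.00076), Foxm1 (1.12 ± 0.077), E2f8 (0.46 ± 0.016), E2f7 (0.36 ± 0.024) and Mybl2 (0.30 ± 0.0028). No neighbours in this order overlapped in their libraries. The repressors E2f4, E2f6 and E2f5 thus stood at the top, and the factors of late S phase and G2 at the bottom.

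After PNX the order was E2f4 (15.5 ± 0.39, SD, n = 2), E2f6 (8.19 ± 0.27), Foxm1 (7.34 ± 0.17), E2f5 (5.30 ± 0.21), E2f1 (5.13 ± 0.13), E2f2 (3.49 ± 0.018), E2f8 (2.76 ± 0.10), E2f3 (2.40 ± 0.13), E2f7 (2.06 ± 0.024) and Mybl2 (1.58 ± 0.012). E2f5 and E2f1 overlapped, with 5.45 and 5.16 against 5.22 and 5.04 FPKM, and the other neighbours did not. Foxm1 moved from the seventh to the third place, and E2f8 passed E2f3. Among all genes with a count, the FPKM of Foxm1 stood above 36.3% of genes in sham and above 66.2% after PNX, while that of E2f4 stood above 82.7% and 82.1%.

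**Figure D2:**
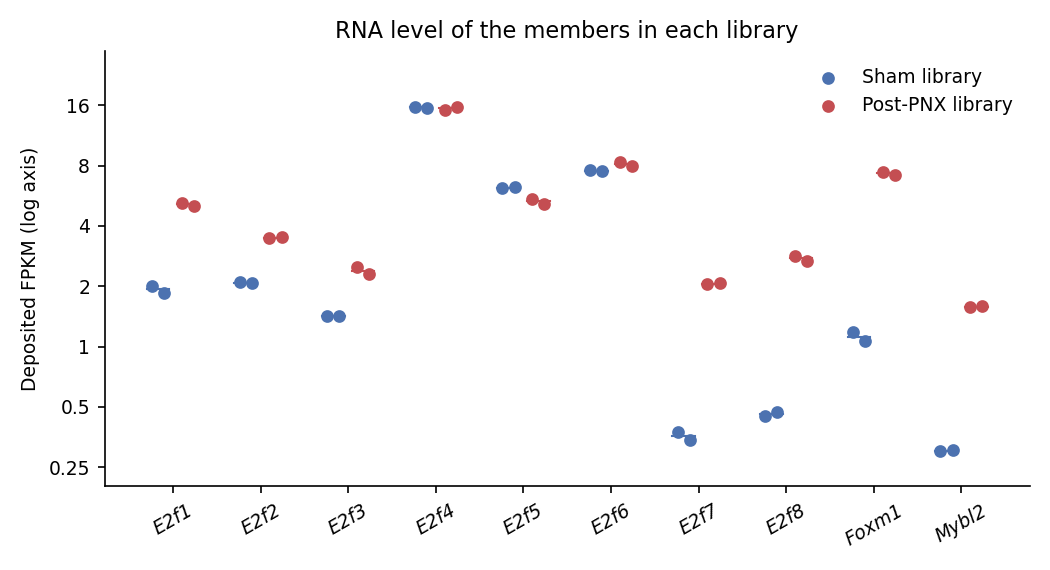
Deposited FPKM of each member (log axis) in the 2 sham and 2 post-PNX libraries, with short lines at the group means. Foxm1, E2f7, E2f8, Mybl2 and E2f1 are separated by wide gaps, whereas E2f4 lies between 15.2 and 15.8 FPKM in all 4 libraries.

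The make-up of the E2F family shifted accordingly. The summed FPKM of E2f1 to E2f8 was 35.9 and 35.5 in sham and 45.1 and 44.5 after PNX. E2f4, E2f5 and E2f6 together took 82.3% and 82.7% of this sum in sham and 64.4% and 64.9% after PNX. The activators E2f1, E2f2 and E2f3 took 15.4% and 15.0% in sham and 24.8% and 24.4% after PNX. The atypical repressors E2f7 and E2f8 took 2.30% and 2.29% in sham and 10.8% and 10.7% after PNX. Their mean share was 4.68 times that in sham, against 1.62 and 0.78 times for the activators and for E2f4 to E2f6, although E2f4 alone was still the single largest component, with 33.7% and 35.4% after PNX. These shares are a description of RNA per length and say nothing of protein.

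**Figure D3:**
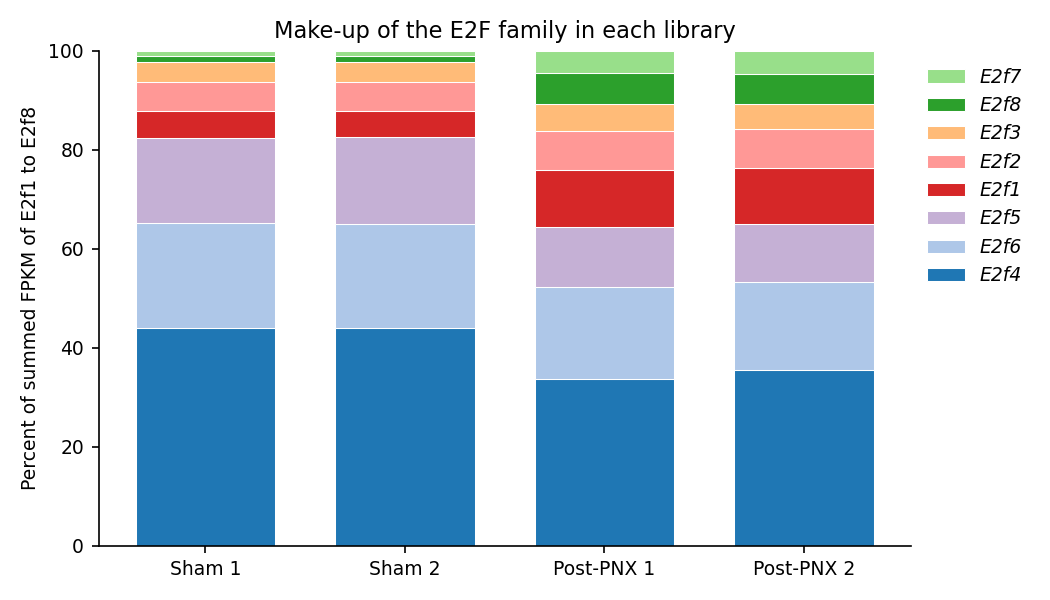
Percent of the summed FPKM of E2f1 to E2f8 held by each gene in each library. The blue and violet part (E2f4, E2f5 and E2f6) falls from over 82% in both sham libraries to under 65% in both post-PNX libraries, and the green part (E2f7 and E2f8) grows from 2.30% and 2.29% to 10.8% and 10.7%.

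Among the DP dimer partners and pocket proteins, 0 of 5 genes were called by edgeR's quasi-likelihood test or by DESeq2, against 7.56% of all genes tested in edgeR. At an unadjusted p under 0.05 there were 2 higher and 3 lower, where 34.6% of all genes tested were higher and 33.6% lower. The median log2 fold change was -0.20, against 0.00 over all genes tested. Tfdp1, which encodes the main dimer partner DP1, differed by 0.78 on the log2 scale (adjusted p = 2.1e-28), and Rbl1, the pocket protein p107, had 0.59 (adjusted p = 1.2e-20). Rb1, the retinoblastoma gene, had 5502 and 5316 normalised counts in sham and 4667 and 4770 after PNX, or -0.20 on the log2 scale (adjusted p = 2.5e-09). Rbl2, the pocket protein p130 of resting cells, had 3750 and 3693 in sham and 3224 and 3135 after PNX (-0.23, adjusted p = 1.8e-09), and Tfdp2 had -0.36 (adjusted p = 1.3e-14). With scaling to the endothelial markers, under which all genes had a median of 0.24, 1 of these 5 genes was called higher, and TMM values between -0.24 and 0, such as those of Rb1 and Rbl2, lie above 0 on that scaling.

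Of the MuvB core and MYB paralogs, 1 of 7 was called higher and 0 lower, against 5.90% and 1.66% of all genes tested. DESeq2's Wald test also called 1 higher and 0 lower. At an unadjusted p under 0.05 there were 4 higher and 2 lower, against the same 34.6% and 33.6% of all genes. The gene called was Mybl1, which encodes A-MYB, with 158 and 147 normalised counts in sham and 376 and 368 after PNX (log2 fold change 1.29, adjusted p = 9.2e-18). Lin9, a MuvB subunit, differed by 0.74 on the log2 scale (adjusted p = 1.3e-12). Rbbp4, a histone binding subunit shared with other complexes, and Lin54, the subunit that binds the CHR element, had 0.28 and 0.21 (adjusted p = 2.9e-17 and 7.8e-05). Lin37 had 0.0047 (adjusted p = 0.959), Lin52 had -0.38 (adjusted p = 6.3e-09) and Myb had -0.69 (adjusted p = 1.3e-09). Among 6 partners of E2F6, 0 were called by either tool, against 7.56% of all genes tested in edgeR. At an unadjusted p under 0.05 there were 1 higher and 3 lower, a share in either direction to be read against 68.2% of all genes. Mga, the scaffold of the complex, had 5695 and 5556 normalised counts in sham and 4243 and 4181 after PNX, or -0.42 on the log2 scale (adjusted p = 2.6e-21), and Max, its dimer partner, had -0.24 (adjusted p = 8.6e-10).

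Of 26 E2F target genes of the G1/S transition, 21 were called higher and 0 lower, with a median log2 fold change of 1.43, against 5.90% called higher and a median of 0.00 over all genes tested. Uhrf1, which keeps DNA methylation through replication, had 317 and 323 normalised counts in sham and 2166 and 2123 after PNX (log2 fold change 2.74, edgeR adjusted p 1.6e-47). Rrm2, the small subunit of ribonucleotide reductase, had 434 and 423 in sham and 2588 and 2606 after PNX (2.60, adjusted p = 9.1e-49). Mcm6, of the replicative helicase, differed by 1.12 on the log2 scale (adjusted p = 2.7e-40). Pcna, the sliding clamp, was among the 5 genes short of the fold threshold, with 0.73 (adjusted p = 1.7e-32).

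Of 25 target genes of FOXM1 and B-MYB in G2 and mitosis, 24 were called higher and 0 lower, with a median log2 fold change of 3.06. No gene of either target list was lower at an unadjusted p under 0.05, against 33.6% of all genes, and DESeq2's Wald test called 21 and 24 higher. Cenpf, a kinetochore protein, had 181 and 189 normalised counts in sham and 3091 and 3083 after PNX (log2 fold change 4.06, edgeR adjusted p 5.4e-56). Cdc25c, a phosphatase that starts mitosis, had 25.4 and 21.4 in sham and 306 and 333 after PNX (3.75, adjusted p = 9.7e-30). Top2a, the topoisomerase of chromosome separation, had 987 in both sham libraries and 8282 and 8112 after PNX (3.05, adjusted p = 4.0e-62). The gene not called was Cdc25b, with 0.68 (adjusted p = 6.0e-27). The lists were chosen with earlier results of these libraries known and are not independent evidence of direction.

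**Figure D4:**
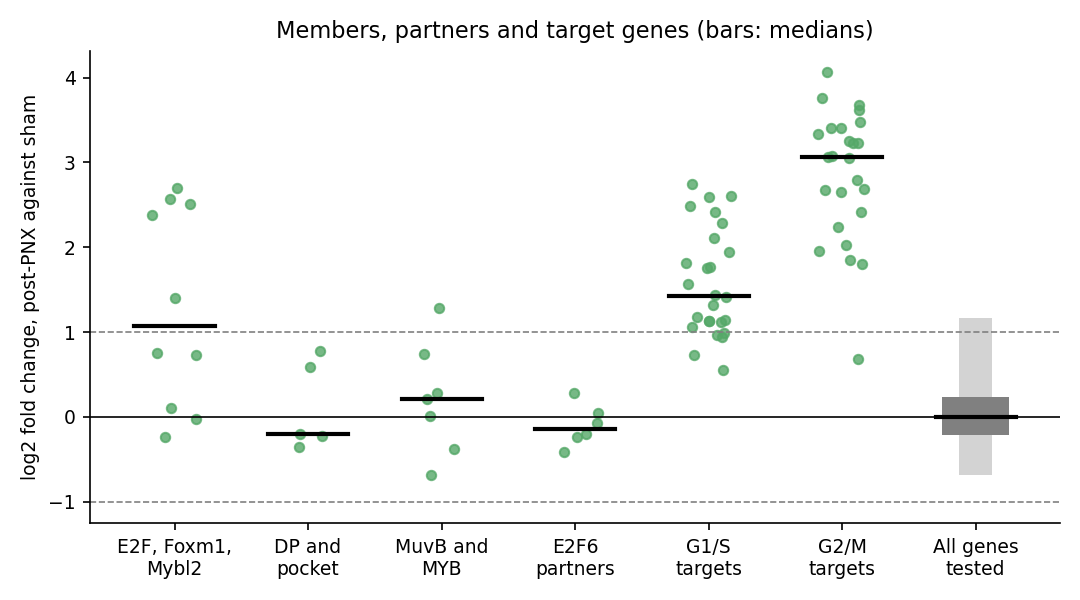
log2 fold change in post-PNX against sham ECs of each gene (points) among the 10 members, 3 lists of partners and 2 lists of target genes, with medians as black bars; the grey box spans the middle 50% and the light bar the middle 90% of all genes tested. Target genes of G2/M (median 3.06) lie above those of G1/S (median 1.43), and the medians of the partner lists lie between -0.20 and 0.21.

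The members were also set against the summed counts of the target lists within each library. For every 1000 counts of the G2/M list, Foxm1 had 38.9 and 35.6 counts in sham and 40.4 and 39.6 after PNX. E2f8 had 12.6 and 13.4 in sham and 13.0 and 12.4 after PNX, and the groups overlapped. E2f7 had 15.6 and 14.3 in sham and 13.9 and 14.3 after PNX. Mybl2 had 8.40 and 8.59 in sham and 7.21 and 7.38 after PNX.

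The sum of the G2/M list itself went from 210 and 208 CPM to 1280 and 1264 CPM, and the post-PNX mean of these proportions was 1.07 times the sham mean for Foxm1, 0.98 times for E2f8, 0.94 times for E2f7 and 0.86 times for Mybl2. E2f1 had 41.1 and 38.3 counts for every 1000 of the G2/M list in sham and 17.5 and 17.1 after PNX, 0.44 times the sham mean. Against the G1/S list, whose sum went from 453 and 451 CPM to 1103 and 1091 CPM, E2f1 had 19.1 and 17.7 counts for every 1000 in sham and 20.3 and 19.8 after PNX. E2f2 and E2f3 fell behind the G1/S list, from 35.2 and 34.7 to 23.8 and 24.2 and from 25.4 and 25.5 to 18.3 and 17.1. Foxm1 went ahead of it, from 18.1 and 16.5 to 47.0 and 45.9. So did E2f7, E2f8 and Mybl2, whose post-PNX means against the G1/S list were 2.36, 2.45 and 2.15 times the sham means. These proportions are given as a description and were chosen after the values were seen.

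**Figure D5:**
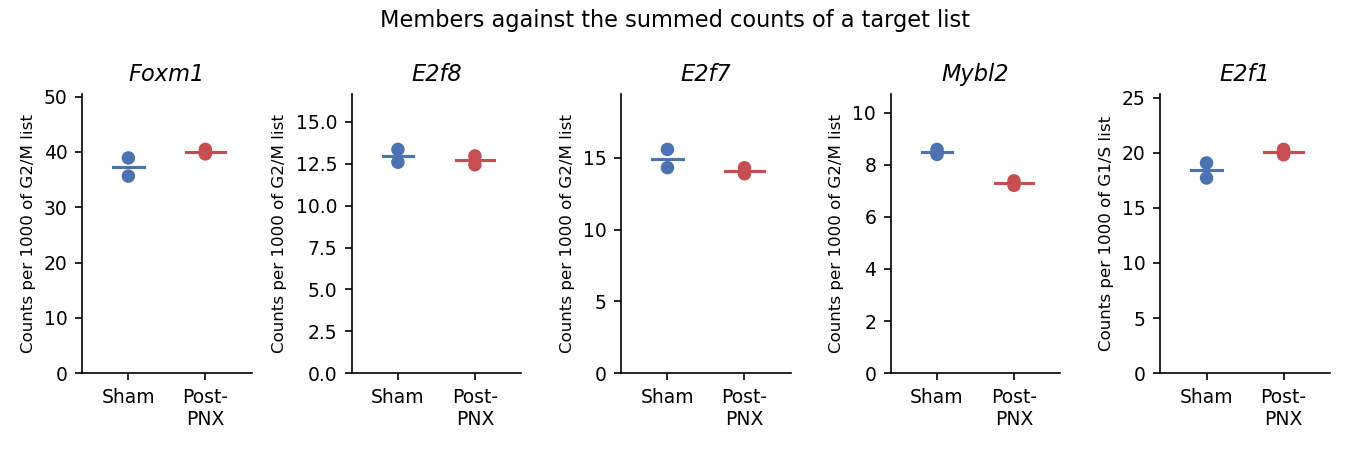
Counts of Foxm1, E2f8, E2f7 and Mybl2 for every 1000 counts of the G2/M target list, and of E2f1 for every 1000 counts of the G1/S target list, in each library (points) with group means (lines); every axis starts at 0. The group means go from 13.0 to 12.7 for E2f8, where libraries overlap, and from 8.49 to 7.30 for Mybl2, where they do not.

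Genes whose values over the 4 libraries were most like those of each called member were found by the distance between log2 normalised counts, each centred on its own mean, among 13392 genes averaging 100 normalised counts or more. With libraries of a group so alike, this distance mostly reflects a like fold between the groups. E2f1 had a log2 fold change of 1.40, and its 3 nearest genes had 1.41, 1.44 and 1.38. A small distance does not show a shared cell source or shared control. Nearest to E2f1 were Dsn1, a kinetochore subunit (distance 0.018), Nnmt (0.039) and Fam180a (0.042). Nearest to E2f7 were Kif15, a mitotic kinesin (0.050), Espl1, which encodes separase (0.076), and Pole, a replicative polymerase (0.077). Nearest to Mybl2 were Col1a1 (0.044), Trip13, a checkpoint ATPase (0.066), and Ildr2 (0.076).

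Nearest to Foxm1 were Folr2, a marker of resident macrophages (0.045), Cyp1b1 (0.047) and Vcan, a matrix proteoglycan (0.051), and nearest to E2f8 were Tnc, a matrix glycoprotein (0.056), H1fx (0.071) and C330027C09Rik (0.091). Within a distance of 0.2 there were 32 genes for Foxm1, 33 for E2f8, 35 for E2f7, 36 for Mybl2 and 100 for E2f1. The macrophage and fibroblast marker sums were 2.34-fold and 3.78-fold higher after PNX, although Pdgfra of the fibroblast list was lower. Which cells held the RNA of the members was not tested.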

How the data were processed

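Polyadenylated RNA of CD31-selected lung ECs was sequenced as paired ends from stranded libraries and aligned to mm10. STAR is named in the submitters' processing notes, and the counting program is not given in the sources used here. The authors deposited, per library, whole-number counts on 33068 RefSeq transcripts without normalization. The authors also deposited FPKM values, used here for levels, and TPM values, which were not used. Each symbol was represented by the transcript whose count summed over the libraries was highest, since a read over several transcripts had been counted for each.

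Counts were filtered with filterByExpr (16208 genes), scaled with TMM (factors 0.9985 to 1.0026) and tested with the quasi-likelihood F test of edgeR 4.0.16 in R 4.3.3 without covariates, with Benjamini-Hochberg adjustment. Standard errors (SE) were obtained from the log2 fold change and its F statistic. A floor of 3 counts was 0.059 to 0.073 CPM in these libraries, for counting error only. The chi-square between the 2 sham and the 2 post-PNX libraries averaged 1.77 and 1.53 per gene, where counting noise alone gives 1. No library was thus an identical copy of another. This check cannot tell separate pools of mice from repeat libraries of the same pool. On simulated data 199 of 200 changed genes and 0 others were called among 16091 genes. The planted changes all lay past the fold threshold, in genes averaging 50 counts or more, with the same small spread for every gene. The simulation therefore checks the code and does not measure how the test performs on these libraries.

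Named genes were the 10 members, in each list of partners or targets the 2 called genes with the largest change and the 2 with the most counts, and the 3 nearest in pattern to each called member. Genes outside this rule (Tfdp1, Rbl1, Tfdp2, Lin9, Lin37, Lin52, Myb, Pdgfra, Xist and overlapping genes) were added with their values in view. Members and lists were chosen with earlier results of these data known. Adgre1 was matched by its older symbol Emr1. Alternatives tried were scaling by size factors from DESeq2, by library size or by 12 endothelial markers, no filter, a filter at a mean of 50 counts, DESeq2 1.42.0 with its Wald test, glmTreat, the replicate number as a block, summed transcripts and each library left out.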

Additional observations from a re-analysis of the deposited data

How the results depend on the processing

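The number of members called was 5 higher and 0 lower under all 13 alternatives. Scaling to 12 endothelial markers gave log2 fold changes of 0.21 for E2f4 and 0.0065 for E2f5, with signs opposite to those under TMM, 92 genes called lower and 1 DP or pocket gene called higher. E2f4 also changed sign when the first post-PNX library was left out, with values from -0.053 to 0.0023 over the 4 libraries left out. Restricting the test to genes averaging 50 counts left 160 genes called lower. The glmTreat test, which asks whether the fold itself exceeds the threshold, called 604 genes higher, 39 lower and 0 of the MuvB and MYB list. Sham and post-PNX libraries share only the numbers 1 and 2 and are described as from different mice. The correlation of same-numbered deviations was 0.023 over 14298 genes. With the replicate number as a block 957 genes were higher and 272 lower, against 957 and 269 without it, and 5 members were higher. With each library left out the log2 fold change of Foxm1 was 2.63 to 2.78, of E2f8 2.53 to 2.61, of E2f7 2.45 to 2.58, of Mybl2 2.37 to 2.39 and of E2f1 1.35 to 1.46. The adjusted p of E2f5 was 4.2e-04 and missed 0.01 under DESeq2's Wald test (0.0239), the endothelial scaling (0.924), glmTreat, and without the second post-PNX library (0.0122). A group left with 1 library was assumed to vary like the other. With 2 libraries per group of 2 mice each, spread between single mice is not seen.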
